A study of Homo sapiens with 3 samples.

Results

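MicroRNA (miRNA) genes carrying a peak of crosslinked RNA for the ribosomal protein RPL22 or for its paralog RPL22L1 were taken as every human RefSeq gene of type miRNA, with a symbol starting MIR, that held at least 1 peak summit between its first and last base. There were 98 such genes (5.12%) of 1913 miRNA genes annotated on GRCh38. The RPL22 list placed a summit in 44 of them and the RPL22L1 list in 70. Of the 98 genes, 28 were found in the RPL22 list only, 54 in the RPL22L1 list only and 16 in both. The genes were thus chosen by the summit positions of these same lists, so their presence, scores and ranks are described here without a test.

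The peaks came from HCT116, an established human colorectal carcinoma cell line, that expressed RPL22 fused to HaloTag or RPL22L1 fused to HaloTag. HaloTag is a protein tag that binds its resin covalently, and GoldCLIP (a gel-free crosslinking and immunoprecipitation method) uses it to hold a protein with its crosslinked RNA through harsh washes. Each fusion had 1 library, so no difference between the lists has a replicate check. The library from cells with HaloTag alone was not analysed here, and the labels do not give the state of the cells' own RPL22 and RPL22L1 genes.

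RPL22 belongs to the large subunit of the ribosome and also binds RNA hairpins outside it, and RPL22L1 is its close relative. A miRNA starts as a hairpin in a longer primary transcript, very often an intron of a host gene. Drosha and DGCR8 cut the hairpin out, exportin 5 carries it to the cytoplasm, Dicer removes the loop, and an Argonaute protein keeps 1 arm, whose seed (bases 2 to 8) pairs with target mRNAs. A peak over a miRNA gene can lie on the primary transcript, on the precursor or on an arm, and a peak list does not separate them.

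Of the 98 genes, 92 had mature sequences in RefSeq (153 in all, GRCh38.p14), with 142 distinct seeds. By these entries members were mostly unrelated in seed: 8 seeds were shared by more than 1 member, and 17 members shared one. Some members, such as MIR425 and MIR7-2, lacked an entry for an arm, so these counts cover listed arms only. The groups below are shown because they hold the members of the same seed that recur in the results. Capitals mark the seed.

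The let-7 seed group (GAGGUAG) was the largest, with 4 members.
let-7b-5p: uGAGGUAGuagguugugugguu
let-7e-5p: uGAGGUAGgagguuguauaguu
let-7f-5p: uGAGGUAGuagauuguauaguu
miR-98-5p: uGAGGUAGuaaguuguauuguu

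The AGUGCAA group held 3 members, of which MIR301B and MIR130B are neighbours on chromosome 22.
miR-130b-3p: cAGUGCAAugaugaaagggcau
miR-301b-3p: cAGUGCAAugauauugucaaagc
miR-454-3p: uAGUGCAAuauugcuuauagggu

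The GCUACAU group was the neighbouring pair MIR221 and MIR222 on chromosome X.
miR-221-3p: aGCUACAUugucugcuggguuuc
miR-222-3p: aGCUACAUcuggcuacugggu

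The AGCACCA group was made of MIR29A and MIR29B2, which lie on different chromosomes.
miR-29a-3p: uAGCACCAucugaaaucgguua
miR-29b-3p: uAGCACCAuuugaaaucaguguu

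MIR423 and MIR3184 lie on opposite strands of the same stretch of chromosome 17, and their 5p arms share the seed GAGGGGC.
miR-423-5p: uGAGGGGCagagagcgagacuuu
miR-3184-5p: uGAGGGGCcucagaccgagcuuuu

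MIR326 and MIR330 shared CUCUGGG, MIR7-1 and MIR7-2 shared AACAAAU in their 3p arms, and the 3p arms of MIRLET7B and MIR98 shared UAUACAA. The 5p arm of MIR7-2 had no entry, but its hairpin holds the whole miR-7-5p sequence listed for MIR7-1 (seed GGAAGAC).

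Hairpins are printed next for the members whose peaks the results turn on, with the bases under the peak in capitals. The first set holds genes in both lists. In MIR664A and MIR664B, the RPL22 peak lay on the 3p arm, and the 2 hairpins had an identical run of 17 bases (uauuauucuauucauuu). Reads confined to that run could have been placed on either gene. The summits lay past the run, at base 59 of MIR664A and base 49 of MIR664B in both lists.
MIR664A, RPL22 peak: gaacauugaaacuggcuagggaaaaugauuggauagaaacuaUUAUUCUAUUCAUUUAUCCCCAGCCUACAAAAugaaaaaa
MIR664B, RPL22 peak: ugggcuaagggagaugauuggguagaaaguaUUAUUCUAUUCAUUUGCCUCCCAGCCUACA
MIR10397, RPL22 peak: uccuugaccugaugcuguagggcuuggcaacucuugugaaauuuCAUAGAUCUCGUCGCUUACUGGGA
MIR222, RPL22 peak: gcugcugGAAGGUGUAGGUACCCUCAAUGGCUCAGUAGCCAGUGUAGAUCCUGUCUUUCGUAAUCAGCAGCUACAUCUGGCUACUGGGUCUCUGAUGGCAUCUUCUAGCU
MIR425, RPL22L1 peak: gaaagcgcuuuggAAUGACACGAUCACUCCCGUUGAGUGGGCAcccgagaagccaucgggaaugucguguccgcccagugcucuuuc

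In MIR182 and MIR34A both lists had a peak, but on opposite arms.
MIR182, RPL22 peak: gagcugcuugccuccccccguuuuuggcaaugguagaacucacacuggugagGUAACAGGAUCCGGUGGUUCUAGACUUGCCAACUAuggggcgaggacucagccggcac
MIR182, RPL22L1 peak: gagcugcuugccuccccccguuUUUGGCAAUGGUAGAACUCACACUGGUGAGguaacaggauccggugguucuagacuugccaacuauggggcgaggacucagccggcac
MIR34A, RPL22 peak: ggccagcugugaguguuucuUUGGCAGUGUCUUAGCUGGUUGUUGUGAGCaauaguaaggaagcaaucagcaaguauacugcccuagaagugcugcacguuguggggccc
MIR34A, RPL22L1 peak: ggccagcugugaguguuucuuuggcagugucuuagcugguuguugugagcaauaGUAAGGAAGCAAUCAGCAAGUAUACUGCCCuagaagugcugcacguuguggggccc

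In MIR10A the 2 peaks shared a summit base near the 5′ end of the hairpin but covered different lengths of it.
MIR10A, RPL22 peak: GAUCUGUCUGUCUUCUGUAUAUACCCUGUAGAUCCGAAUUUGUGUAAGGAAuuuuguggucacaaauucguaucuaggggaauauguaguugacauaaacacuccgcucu
MIR10A, RPL22L1 peak: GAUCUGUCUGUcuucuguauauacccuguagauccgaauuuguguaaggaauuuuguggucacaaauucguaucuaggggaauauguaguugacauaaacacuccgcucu

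MIR196B and MIR3651 held the highest-scoring peak among members of a single list, MIR196B for RPL22 and MIR3651 for RPL22L1.
MIR196B, RPL22 peak: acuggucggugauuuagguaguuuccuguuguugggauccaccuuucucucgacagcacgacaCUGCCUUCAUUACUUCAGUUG
MIR3651, RPL22L1 peak: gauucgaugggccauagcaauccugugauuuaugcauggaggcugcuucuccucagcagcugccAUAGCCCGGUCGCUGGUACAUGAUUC

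MiRNA genes were rarely marked in either list. The share with a summit was 2.30% for RPL22 (95% exact Clopper-Pearson interval 1.68% to 3.08%, which here and below covers counting error only) and 3.66% for RPL22L1 (2.86% to 4.6%), and 0.836% (0.479% to 1.35%) held one in both. Over all 59716 annotated genes, most of them far longer, the shares were 35.1% and 36.8%. Among 5131 other genes of at most 200 bases they were 9.00% and 11.4%, with 5.55% in both, so the share of miRNA genes lay below that of other short genes in both lists; the difference was not tested. Small nucleolar RNA (snoRNA) genes, which guide RNA modification, had a summit in 11.6% and 15.7%.

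The lists shared part of their members. Of the 44 genes in the RPL22 list, 36.4% (22.4% to 52.2%) had a summit in the RPL22L1 list, and of the 70 in the RPL22L1 list, 22.9% (13.7% to 34.4%) had one in the RPL22 list. The same shares were 61.7% and 48.6% among the other short genes. Among 154000 peaks for RPL22 and 254413 for RPL22L1, overlap with a peak of the other list was seen for 17.4% and 10.6%, and among member peaks for 34.1% (20.5% to 49.9%) and 26.4% (16.7% to 38.1%). The gene-level share was thus below that of other short genes, and the peak-level overlap above that of the whole list. The peak-level comparison sets unlike peaks side by side, since member peaks were less often of the minimum form described below. Of the overlapping member peaks, 14 of 15 for RPL22 and 14 of 19 for RPL22L1 did not have that form. An overlap share for listed peaks of like form or rank was not taken.

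**Figure D1:**
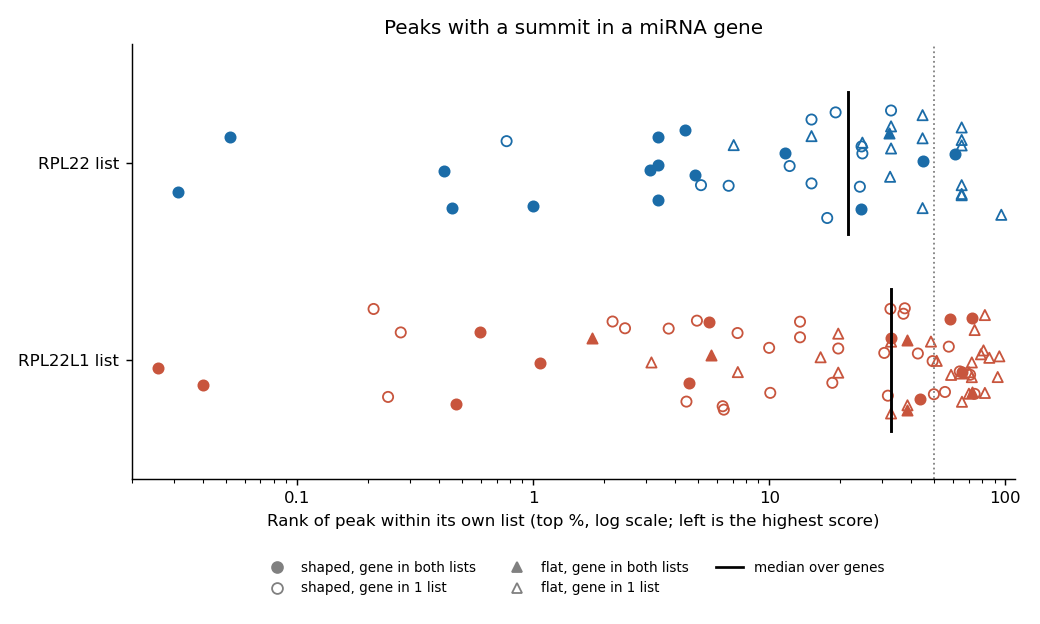
Each point is a peak with its summit in a miRNA gene, placed by its rank within its own list as a percentage of the list (log scale, left is the highest score), RPL22 in the upper row and RPL22L1 in the lower row. Filled symbols are genes found in both lists, triangles are flat peaks and the vertical bars are medians over genes (21.6% and 32.8%); the filled points lie mostly to the left, led by MIR664A and MIR664B.

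Each peak carries a score by which it is ranked within its list only, since the lists differ in length and their depth is unknown. The 44 members in the RPL22 list had scores from 17 to 60072 with a median of 66.5, against 33 for the whole list. The 72 peaks of the 70 members in the RPL22L1 list had scores from 24 to 83420, and the median over members was 168, against 124 for that list. In terms of rank, the median member stood at the top 21.6% of the RPL22 list and at the top 32.8% of the RPL22L1 list. The top 1% of the list held 5 members for RPL22 and 7 for RPL22L1, and the top 10% held 15 members (34.1%) and 23 members (32.9%). At the other end, 8 and 23 members ranked below the middle of their list.

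Many listed peaks have the minimum form, 30 bases wide with the summit at offset 15, and are called flat here. Their share was 64.9% in RPL22 and 77.9% in RPL22L1. Among member peaks they were fewer, 17 of 44 (38.6%, 24.4% to 54.5%) and 30 of 72 (41.7%, 30.2% to 53.9%). In the RPL22 list 6 member peaks had a score of 21, the most frequent score of flat peaks there, and none of these 6 genes was in both lists.

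Genes found in both lists had a higher median rank in each list than genes of a single list. In the RPL22 list the median rank of the 16 genes in both was the top 3.39%, and that of the 28 others was the top 28.7%. In the RPL22L1 list it was the top 5.6% for the 16 genes and the top 34.9% for the 54 others. Flat peaks were found for 1 of the 16 shared genes in the RPL22 list and 5 of the 16 in the RPL22L1 list. Among genes of a single list they were found for 16 of 28 for RPL22 and 24 of 54 for RPL22L1.

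**Figure D2:**
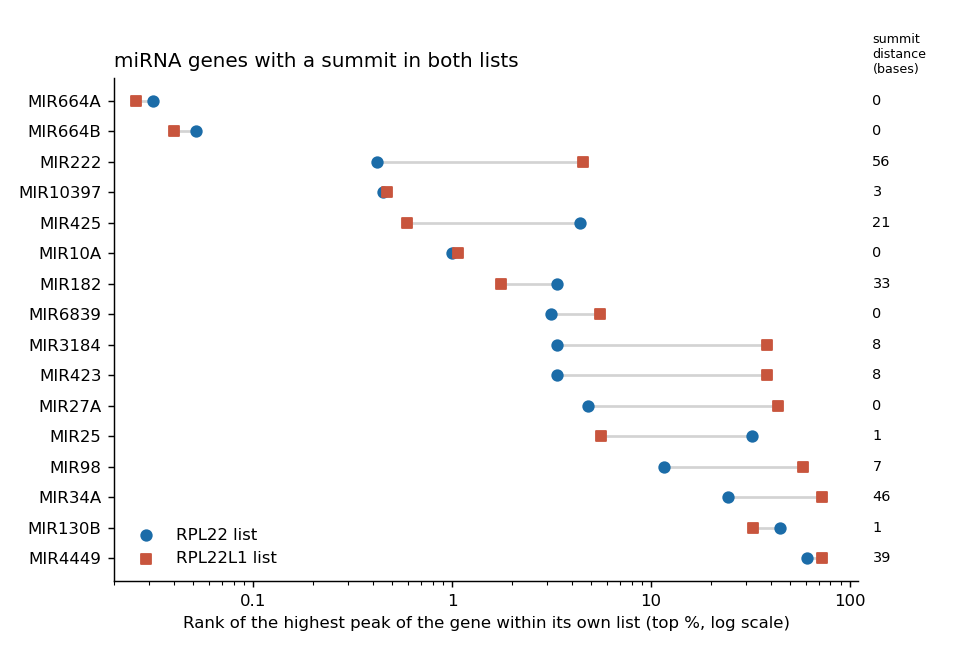
Rank of the highest peak of each gene for RPL22 (circles) and for RPL22L1 (squares) (top percent of each list, log scale) for the 16 miRNA genes with a summit in both, 1 row per gene. MIR664A and MIR664B stand highest among these genes in both lists, while MIR27A stands at the top 4.85% of one and 43.4% of the other, and MIR25 at the top 32.1% and 5.64%.

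MIR664A and MIR664B led the members of both lists. The MIR664A peak scored 60072 for RPL22 (rank 48, top 0.0312%) and 83420 for RPL22L1 (rank 66, top 0.0259%). The MIR664B peak scored 30133 (rank 80, top 0.0519%) and 46588 (rank 102, top 0.0401%). In each gene the 2 lists placed the summit on the same base. MIR664A (chromosome 1, 220200538 to 220200619) lies within RAB3GAP2, which encodes a regulator of Rab GTPases, and MIR664B (chromosome X, 154768596 to 154768656) within DKC1, which encodes dyskerin, the pseudouridine synthase of H/ACA snoRNA particles.

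Both genes overlap an H/ACA snoRNA gene, a class that guides pseudouridylation. MIR664A shares 74 bases with SNORA36B and MIR664B shares 61 bases with SNORA36A. MIR3651, which led the members of the RPL22L1 list alone with a score of 2716 (rank 537, top 0.211%), shares 87 bases with SNORA84 inside IARS1, a tRNA synthetase gene. In all 5 of these peaks the summit lay 15 bases inside the snoRNA bound that is downstream on the strand of the miRNA gene. For MIR664A the peak of both lists began on the boundary base of SNORA36B itself (220200546). Whether these peaks came from the snoRNA or from the miRNA hairpin was not tested, and the levels of these 3 genes cannot be told apart from those of their snoRNAs.

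MIR4521, on chromosome 17, shares 3 bases with the serine tRNA gene TRS-GCT4-3, and its summit lay outside the tRNA gene. Overlap with another small RNA gene was found for 4 of 98 members and for 11 of 1913 miRNA genes. It was judged by position, so likeness in sequence to a small RNA gene elsewhere was not covered. Without the overlapping genes the top 1% held 3 members for RPL22 and 4 for RPL22L1, and the median ranks were the top 24.3% and 34.9%.

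Among the 16 shared genes, ordered by the better of their 2 ranks, MIR222, MIR10397 and MIR425 followed. MIR222, an often-raised miRNA in carcinomas that targets the cell cycle inhibitor CDKN1B, scored 1091 for RPL22 (rank 646, top 0.419%) and 438 for RPL22L1 (rank 11591, top 4.56%). Its 2 peaks overlapped over nearly the whole hairpin, but their summits were 56 bases apart, at base 17 in the RPL22 list and at base 73, on the 3p arm, in the RPL22L1 list. MIR10397, in MARCHF6, scored 1014 (rank 696, top 0.452%) and 1350 (rank 1197, top 0.47%), with summits 3 bases apart on the 3p arm. MIR425, the neighbour of MIR191 in DALRD3, scored 203 (rank 6773, top 4.4%) and 1193 (rank 1511, top 0.594%), with summits 21 bases apart.

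MIR10A, which lies among the HOXB genes within the bounds of HOXB3, scored 506 (rank 1541, top 1.0%) and 899 (rank 2716, top 1.07%). Its summit was base 4 of the hairpin in both lists, outside both arms. MIR6839, in ZNF107, scored 254 (rank 4832, top 3.14%) and 403 (rank 14169, top 5.57%), again with 1 common summit base. For both genes the lists thus shared the summit base and placed the peak in the top 10%.

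MIR182, a sensory-organ and cancer miRNA with no annotated host, scored 238 for RPL22 (rank 5216, top 3.39%) and 698 for RPL22L1 (rank 4502, top 1.77%). The RPL22 peak had its summit on the 3p arm and the RPL22L1 peak, which was flat, on the 5p arm, 33 bases away, and the 2 did not share a base. MIR34A, a p53 target that slows the cell cycle, scored 60 (rank 37581, top 24.4%) and 72 (rank 184081, top 72.4%). Its RPL22 summit lay on the 5p arm and its flat RPL22L1 summit on the 3p arm, 46 bases apart. These were the 2 genes of 16 whose peaks did not overlap.

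The other shared genes stood lower in at least 1 list. The single peak that counts for both MIR423 and MIR3184, in NSRP1, scored 238 (rank 5216, top 3.39%) and 150 (rank 97918, top 38.5%). MIR27A scored 196 (rank 7466, top 4.85%) and 140 (rank 110502, top 43.4%), with 1 common summit base. MIR98, of the let-7 family, scored 108 (rank 17987, top 11.7%) and 101 (rank 148226, top 58.3%).

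MIR25, in the DNA replication gene MCM7, scored 48 (rank 49486, top 32.1%) and 399 (rank 14349, top 5.64%), and the RPL22L1 list had a second summit near its 5′ end. MIR130B scored 33 (rank 68706, top 44.6%) and 168 (rank 83348, top 32.8%). MIR4449, in the noncoding gene DANCR, scored 31 (rank 94069, top 61.1%) and 72 (rank 184081, top 72.4%). Over the 16 shared genes, 14 had overlapping peaks, 11 had summits within 10 bases of each other, 5 had the same summit base (MIR664A, MIR664B, MIR10A, MIR6839 and MIR27A), and the median distance was 5 bases.

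Among the 28 genes of the RPL22 list alone, MIR196B ranked highest, with a score of 614 (rank 1189, top 0.772%). It lies in the HOXA cluster and regulates HOX mRNAs. An RPL22L1 peak overlapped the MIR196B peak with its summit 24 bases away and outside the gene, so its absence from the RPL22L1 members rests on the boundary of the gene. No other gene of the RPL22 list alone had an overlapping RPL22L1 peak. The nearest RPL22L1 summit was within 100 bases for 2 of the 28 and more than 1000 bases away for 12, with a median of 877.5 bases.

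Among the 54 genes of the RPL22L1 list alone, MIR3651 was followed by MIR7-1 and MIR4454. MIR7-1, in the hnRNP gene HNRNPK, scored 2357 (rank 617, top 0.243%), with its summit at base 3 of the hairpin. MIR4454, with no host, scored 2070 (rank 699, top 0.275%) and had its nearest RPL22 summit 5124 bases away. MIR7705, in the poly(A)-binding protein gene PABPC1, scored 628 (rank 5524, top 2.17%). An overlapping RPL22 peak with its summit outside the gene was present for 5 of the 54 (MIR6835, MIR326, MIR23A, MIRLET7F2 and MIR374A), and the nearest RPL22 summit was more than 1000 bases away for 31.

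Gene bounds set the membership closely. Of 1815 miRNA genes without a summit, 20 had an RPL22 summit and 48 an RPL22L1 summit within 25 bases outside. MIR21, MIR17, MIR20A, MIR16-1, MIR31, MIR148A and MIR200A were among them. At the other edge, 81 of the 98 members rested on 1 summit in all. The RPL22 summit of MIR1976 lay at base 51 of its 52 bases, just inside the gene, and had the lowest score of the members in that list (17, rank 147930). The lowest score of a member in the RPL22L1 list was 24 (MIR590, rank 240016), with the summit at base 56 of 97.

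**Figure D3:**
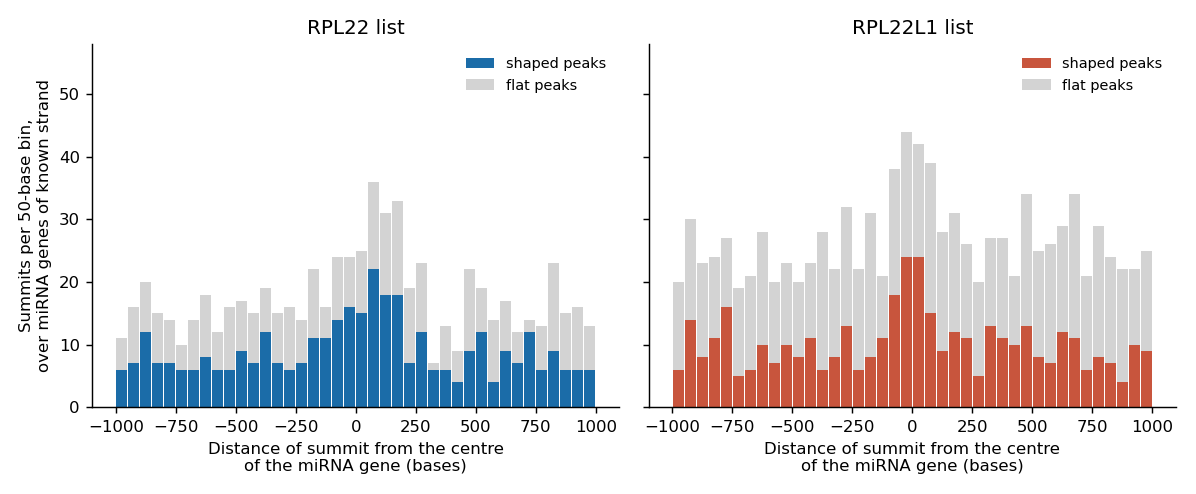
Number of summits per 50-base bin around the centres of the 1774 miRNA genes of known strand (negative is upstream), for RPL22 on the left and RPL22L1 on the right, shaped peaks in colour and flat peaks in grey stacked on them. Shaped RPL22L1 summits are most frequent over the gene itself (24 in each of the 2 central bins), and shaped RPL22 summits 50 to 100 bases downstream of its centre (22).

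Summits per base in miRNA genes were next set against those in their flanks. The summits in the genes are the ones that chose the members, so the ratios are descriptions. Here and below, counts were made gene by gene, so flanks of neighbouring genes overlap and a summit can count more than once. The summits in the genes came from 43 distinct peaks for RPL22 and 71 for RPL22L1. The intervals treat all counts as independent. The RPL22 list had 44 summits in the genes and 213 in the 200 bases on each side, or densities of 281 and 278 per megabase, a ratio of 1.01 (0.712 to 1.4). The RPL22L1 list had 72 and 260, or 459 and 340 per megabase, a ratio of 1.35 (1.03 to 1.76). With flat peaks left out the ratios were 1.06 for RPL22 and 2.01 (1.37 to 2.91) for RPL22L1. With the genes that overlap another small RNA left out they were 0.963 (0.675 to 1.35) and 1.29 (0.974 to 1.69), so the RPL22L1 interval then included 1. With both left out the RPL22L1 ratio was 1.88 (1.25 to 2.75).

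The 2 flanks were also counted apart, a comparison chosen after the summit positions were seen. Over the 1774 miRNA genes of known strand, 117 RPL22 summits lay in the 200 bases downstream and 78 in the 200 bases upstream, a ratio of 1.5 (1.12 to 2.02). It was 1.71 (1.08 to 2.76) for flat RPL22 peaks and 1.36 (0.92 to 2.03), an interval that includes 1, for shaped ones. For RPL22L1 the counts were 123 and 120, a ratio of 1.02 (0.791 to 1.33). Per megabase, RPL22 summits numbered 220.0 upstream, 297 in the gene and 330.0 downstream, and RPL22L1 summits 338, 484 and 347. Strand is that of the miRNA gene, since the peaks have none, and the exons around the hairpins were not used here.

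The part of the hairpin under the summit was then read for each member. Among the 61 members with both arms annotated, the RPL22 list had 30 summits, of which 12 (40.0%, 22.7% to 59.4%) lay on the 5p arm, 13 (43.3%) on the 3p arm, 1 (3.33%) between the arms and 4 (13.3%) outside them. The RPL22L1 list had 47 summits, with 7 (14.9%, 6.2% to 28.3%) on the 5p arm, 21 (44.7%, 30.2% to 59.9%) on the 3p arm, 8 (17%) between the arms and 11 (23.4%) outside. In each list the single peak of MIR423 and MIR3184 was counted on both arms, 3p for MIR423 and 5p for MIR3184. The 5p arm makes up 25.6% of the bases and the 3p arm 25.3%. By count, the 3p arm thus held more than its share of bases in both lists and the 5p arm in the RPL22 list only. The 5p intervals of both lists included 25.6%, and the 3p interval of the RPL22 list began at 25.5%. The contrast between lists was not tested. With shaped peaks alone the 5p arm held 6 of 19 RPL22 summits (31.6%) and 3 of 29 RPL22L1 summits (10.3%).

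**Figure D4:**
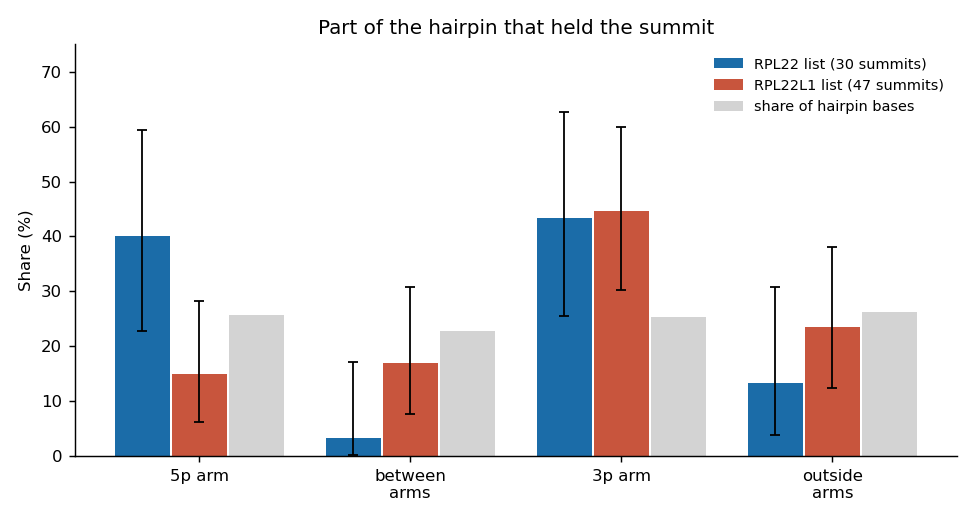
Share of summits on the 5p arm, between the arms, on the 3p arm and outside both arms of the hairpin, for RPL22 and RPL22L1 members with both arms annotated, beside the share of hairpin bases in each region. Bars carry 95% exact intervals over summits; the 5p arm holds 40.0% of RPL22 summits and 14.9% of RPL22L1 summits.

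The ends of the hairpin were also counted. Of 70 RPL22L1 summits in genes of known strand, 16 (22.9%, 13.7% to 34.4%) lay in the first 10 bases, which make up 11.5% of the bases, and 6 (8.57%) in the last 10. Of 43 RPL22 summits, 3 (6.98%, 1.46% to 19.1%) lay in the first 10 bases and 6 (14%) in the last 10. MIR7-1 (base 3), MIR148B (base 5) and MIR10A (base 4) were among the RPL22L1 peaks at the 5′ end. This split was chosen after the positions were seen.

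Sequence composition and predicted folding were computed from the hairpins. Of the 98 members, 84 had a hairpin sequence, with a median GC content of 51.0%, against 52.1% over 1560 hairpins. The medians were 53.4% for the 24 hairpins of the RPL22 list alone, 47.5% for the 45 of the RPL22L1 list alone and 50.9% for the 15 in both. The median predicted folding energy was -0.435 kcal/mol per base for members and -0.452 over all hairpins. In the predicted structure the summit base was paired in 30 of 39 RPL22 cases (76.9%, 60.7% to 88.9%) and in 44 of 61 RPL22L1 cases (72.1%), close to the 70.4% and 72.2% of all bases of the same hairpins.

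Most members lie inside a longer gene. A host, that is a longer gene whose bounds contain the miRNA gene, was found for 88 of 98 members (89.8%), against 80.0% of all miRNA genes. It was protein-coding for 73 members (74.5%, against 62.9%) and a long noncoding RNA alone for 13 (13.3%, against 14.8%). The host lay on the same strand for 73 members, on the other strand for 6, and 9 were not resolved.

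Summits in miRNA genes were counted by whether the host had a summit elsewhere. In the RPL22 list 38 of 1205 miRNA genes (3.15%, 2.24% to 4.3%) had a summit where the host had another. The counts were 3 of 325 (0.923%, 0.191% to 2.67%) where the host had none elsewhere and 3 of 383 (0.783%, 0.162% to 2.27%) without a host. These RPL22 intervals overlap. In the RPL22L1 list the counts were 62 of 1242 (4.99%, 3.85% to 6.35%), 0 of 288 (at most 1.27%) and 8 of 383 (2.09%, 0.906% to 4.07%). The length and expression of the hosts were not taken into account, and their part in these shares was not tested.

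Within its host, the hairpin peak was often the highest in the RPL22 list. It was the top-scoring peak of the host for 20 of 41 RPL22 members with a host, 17 of them among hosts with other summits, and for 14 of 62 RPL22L1 members. The RPL22 count includes MIR423 and MIR3184, which share a peak. It also includes members whose host lies on the other strand, such as MIR3661 in PPP2CA and MIR1260B in MAML2. Hosts held a median of 9 other summits for RPL22 and 17.5 for RPL22L1. MIR664A stood above 30 other RPL22 summits in RAB3GAP2, MIR10397 above 19 in MARCHF6, MIR6839 above 18 in ZNF107 and MIR423 above 17 in NSRP1. MIR98, by contrast, ranked 17 among the RPL22 peaks of HUWE1, an E3 ubiquitin ligase gene with 62 others.

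Members that neighbour each other within 10000 bases formed 8 pairs. MIR423 and MIR3184 had summits in both lists. MIR222 was in both lists and its neighbour MIR221, in the same host MIR222HG, in the RPL22L1 list only, with a score of 170 (rank 82816, top 32.6%). MIR27A was in both lists and MIR23A in the RPL22L1 list only (score 124, rank 126814). MIR24-2, the next gene of that cluster, had no summit inside its bounds but an RPL22 summit within 25 bases outside them.

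MIR130B was in both lists and MIR301B in the RPL22 list only (score 102, rank 18759, top 12.2%). MIR25 was in both lists, MIR93 in the RPL22 list only (score 159, rank 10365, top 6.73%), and MIR106B had no summit, although all lie in MCM7. MIR98 was in both lists and MIRLET7F2, in the same host, in the RPL22L1 list only (score 274, rank 34227, top 13.5%).

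MIR545 and MIR374A, in the noncoding gene FTX of the X inactivation centre, had flat peaks in the RPL22L1 list only, with scores of 73 for both MIR545 summits and 150 for MIR374A. MIR6758 was in the RPL22L1 list (score 595, rank 6227) and MIR616 in the RPL22 list (score 33, rank 68706). In 5 of the 8 pairs, 1 gene was in both lists and its neighbour in 1 only. In all, 34 members (34.7%) lay in a cluster of annotated miRNA genes, against 24.6% of all miRNA genes.

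Of 21 listed miRNA families and clusters, 14 held a member, with 22 members of 207 genes, against 5.12% of all miRNA genes. At that share a small family can easily hold none, so the counts below are descriptions. The let-7 and miR-98 family, which restrains proliferation, had 4 of 12 genes with a summit, all of them in the RPL22L1 list and MIR98 also in the RPL22 list. MIRLET7E scored 426 (rank 12563, top 4.94%) and MIRLET7B 273 (rank 34333, top 13.5%) in the RPL22L1 list. The miR-29 family, which targets extracellular matrix mRNAs, had 2 of 4 in the RPL22L1 list, with a score of 160 for MIR29A and 66 for MIR29B2.

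The growth-promoting miR-17-92 cluster and its paralogs had 2 of 16, MIR25 and MIR93. The epithelial miR-200 family had 1 of 5, MIR200C, with a score of 157 in the RPL22L1 list (rank 95307, top 37.5%). MIR145, MIR26A1 and MIR181B1 were in the RPL22 list alone, each with a flat peak, at scores of 45, 33 and 46. MIR30E (rank 108337, top 42.6%) and MIR148B (score 481, rank 9548, top 3.75%) were in the RPL22L1 list alone.

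No summit was found in the miR-15 and miR-16 group (8 genes), in the intestinal miR-192, miR-194 and miR-215 group (4 genes), in the miR-103 and miR-107 group (5 genes) or in MIR21. Of these genes, MIR21, MIR16-1, MIR103A1 and MIR103B1 had an RPL22L1 summit within 25 bases outside their bounds. None was found in the chromosome 19 cluster (44 genes), in the chromosome 14q32 cluster (53 genes) or in the 8 miRNA genes of ribosomal DNA. The deposited data also hold peaks on an added ribosomal contig, which were not placed in any gene. Whether reads of these 8 genes went to that contig was not tested.

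The share of members also differed by count with the number in the gene name. Numbers were given in order of discovery, so a low number is a rough sign of an abundant or conserved miRNA. Of 638 genes numbered below 1000 or named let-7, 56 (8.78%) were members, against 42 of 1275 (3.29%) with higher numbers. In the RPL22 list the shares were 4.23% and 1.33%, and in the RPL22L1 list 6.43% and 2.27%. Of the 16 genes in both lists, 12 belonged to the first group.

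**Figure D5:**
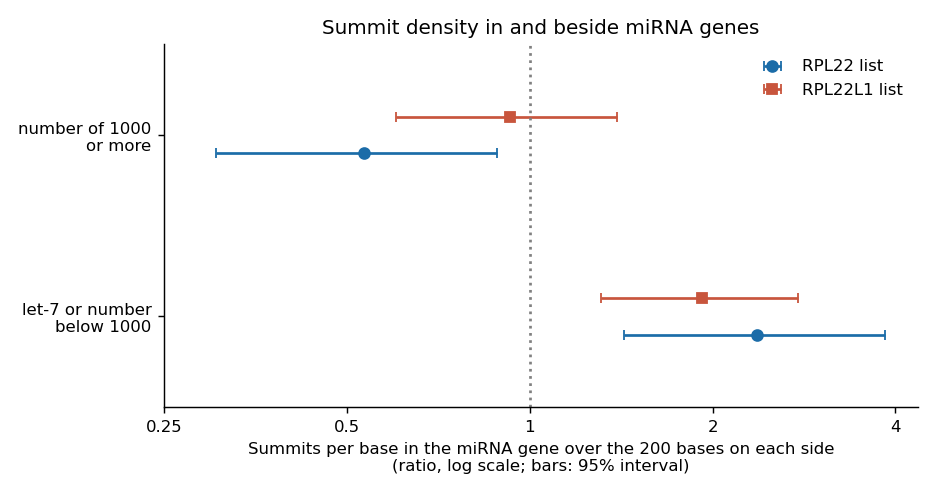
Ratio of summits per base in miRNA genes to that in their 200-base flanks, for genes numbered below 1000 (with let-7) and from 1000 upward, in the RPL22 and RPL22L1 lists, with 95% exact intervals and a line at 1. Low-numbered genes lie above 1 in both lists (2.37 and 1.92), and high-numbered genes lie below 1 for RPL22 (0.534).

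The same split changed the comparison with the flanks. Genes of low number held 2.37 times (1.43 to 3.84) the RPL22 summits per base of their flanks and 1.92 times (1.31 to 2.77) the RPL22L1 summits. For genes of high number the ratios were 0.534 (0.304 to 0.882) for RPL22 and 0.929 (0.602 to 1.39) for RPL22L1. The ratio near 1 for RPL22 over all miRNA genes was thus made of a higher and a lower group. The ratio of downstream to upstream RPL22 summits was 1.57 (1.12 to 2.22; 1.47, 0.932 to 2.34, for shaped peaks) in genes of high number and 1.3 (0.698 to 2.46) in genes of low number. This split was also chosen after the data were seen.

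The genes that make miRNAs were themselves widely marked. Of 31 listed biogenesis and Argonaute pathway genes, 28 (90.3%) had an RPL22 summit and 30 (96.8%) an RPL22L1 summit, against 68.3% and 69.8% of all protein-coding genes. DROSHA held 31 and 76 summits, DGCR8 13 and 20, DICER1 18 and 70, XPO5 16 and 44, and AGO2 40 and 79. LIN28A, which blocks let-7 processing, had none in either list, and LIN28B and HNRNPA1 had none in the RPL22 list. DGCR8 is also the host of the member MIR3618 (RPL22L1 list, score 241). These counts are not scaled for gene length and are not levels of the mRNAs.

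Of 12 colon epithelial markers, 8 had a summit for RPL22 and 9 for RPL22L1, EPCAM, KRT8, KRT18, KRT19 and CDH1 in both, while KRT20, CDX1 and LGR5 had none in either. These shares, 66.7% and 75%, were near the 68.3% and 69.8% of all protein-coding genes. Of 8 markers of other cell types, 2 and 5 had one, and VIM, PTPRC and CD3E had none in either list.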

How the data were processed

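The series holds 3 samples of 1 library each, and the peak lists of both fusions entered the work, while the tag-only sample was not analysed here. Per the submitters' processing notes, which give no role or order, the tools were cutadapt 4.8, STAR 2.7.10a, UMI-tools 1.1.5 and MACS3 3.0.0a6, with build hg38. The deposited lists give each peak's bounds, a score and a summit offset. The score is the authors' own per-peak value of unstated meaning, used only to rank peaks within a list. Peaks carry no strand, and the depth of each library is unknown.

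Each summit was placed in gene bounds of RefSeq on GRCh38.p14 (tables without exons). Hairpin strand and sequences came from RefSeq. Rank was taken by score within a list (ties share the best rank). Flanks were 200 bases on each side. Intervals are 95% exact Clopper-Pearson, or the exact interval for a ratio of 2 counts. Hairpins were folded with RNAfold (ViennaRNA 2.7.2), and other steps used Python 3.11.15 with pandas 2.3.3 and scipy 1.17.1. With 1 library per fusion no test was run. The placement code was run on simulated summits drawn inside 60 miRNA genes per list, and all 60 were recovered. Recovery follows from the rule, so this checks the code alone and not the reading of summits from the deposited lists.

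Named members were the genes in both lists, the 10 highest of each list, those in clusters and families, and genes named beside a count. Members and lists were chosen with earlier results of these data known. MIR423 and MIR3184 were counted as 2 genes although they share 1 peak in each list. Alternatives were extended bounds, any shared base, no flat peaks, equal list lengths, stricter overlap, and (added after seeing the data) wider flanks, upstream and downstream flanks apart, a split by miRNA number, and removal of genes that overlap another small RNA gene.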

Additional observations from a re-analysis of the deposited data

How the results depend on the processing

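Of 46 values under an alternative setting, 38 stayed close to the reported value (counts within 1.5 times, ratios within their interval) and 8 moved. With each gene extended by 25 bases on each side, 68 genes were in the RPL22 list, 119 in the RPL22L1 list and 25 in both. Without flat peaks there were 27 and 42, and the RPL22L1 ratio of gene to flank was 2.01. Counting any base shared by peak and gene put 26 genes in both lists, and asking for an overlap of at least 50% of both peaks left 8 of the 14 overlapping pairs. The first and the third of these settings relax the placement of a peak in a gene, and the others remove peaks or overlaps by construction. With lists of equal size, 52 RPL22L1 genes and 14 genes in both remained. With 500-base flanks, an alternative added after seeing the data, the ratios were 1.28 for RPL22 and 1.49 for RPL22L1.

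The precision is limited by 1 library per fusion, by small numbers of summits, by the absence of strand in the lists and by an unknown depth. A gene with no listed peak may hold reads below the score limit of the list. No paired analysis was possible because each fusion had a single library. Reads placed on near-identical copies cannot be told apart here. By the listed mature sequences, 7 of 98 members share one with another gene. Without such genes 41 members remained for RPL22 and 66 for RPL22L1.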
